A study of Mus musculus with 8 samples.

Results

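The genes described here are 10 neutrophil and promyelocyte granule genes (Elane, Mpo, Ctsg, Prtn3, S100a8, S100a9, Chil3, Ltf, Ngp and Camp), picked by name from 55421 rows counted in the AE9a model and 15994 rows counted in the MLL-AF9 model, and all 10 are in both. RNA was sequenced from cultured BMSC (bone marrow stromal cells, the adherent cells that grow from marrow and bone in a dish) of mice with acute myeloid leukaemia, taken 6 weeks after the leukaemia was transplanted. AE9a is a truncated AML1-ETO fusion, MLL-AF9 is a fusion of the KMT2A and MLLT3 genes, and Id1 encodes an inhibitor of basic helix-loop-helix transcription factors. The groups were AE9a Id1-/- (replicate 1), AE9a Id1+/+ (replicate 2), MLL-AF9 Id1-/- (replicates 1 and 2) and MLL-AF9 Id1+/+ (replicates 1 and 2). Both genotypes of both models carried leukaemia, so no group is free of it. The labels give neither strain, age nor sex, nor how the Id1 allele was made, and they number the replicates without saying that these are separate animals, so p-values measure the spread between libraries, which may be technical. The question asked of these genes was whether loss of Id1 moved them in the same direction under both leukaemias.

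Granule proteins are made in sequence as a neutrophil matures in the marrow. Primary (azurophil) granules are filled at the promyelocyte stage with serine proteases and myeloperoxidase, and secondary (specific) granules later, at the myelocyte stage, with lactoferrin, cathelicidin and related proteins, while calprotectin accumulates in the cytosol of the maturing cell. C/EBP, PU.1, RUNX1 and MYB transcription factors are known regulators of these genes, and AML1-ETO keeps the DNA-binding domain of RUNX1.

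The sequence before the transcription start was searched because these genes share those regulators and because the AE9a fusion binds RUNX sites. All 10 genes matched an entry among the RefSeq promoter sequences (GRCm38, the build of the counts). In the 250 bases before the RefSeq start, on either strand, the PU.1 letters GAGGAAG were found in 5 of the 10 genes, against 10.6% of 32851 promoters. The C/EBP letters TTNNGCAA were found in 3 of 10, against 9.56% of promoters. The RUNX letters TGTGGT were found in 2 of 10, against 14% of promoters, and the MYB letters CNGTTG in 4 of 10, against 29.3% of promoters. None of the matches overlap each other. A match is only a run of letters, and the absence of one says nothing about the factor. Shown here are a primary granule protease pair, Elane and Ctsg, the calprotectin gene S100a9 and Chil3, the gene that stood apart in level. Each is written 5′ to 3′ on the strand of its gene, with capitals marking matches to any of those letters. The Ctsg stretch (chr14:56102575-56102824, minus strand) ends at the base before the start and holds 4 matches: PU.1, MYB, RUNX and MYB. The S100a9 stretch (chr3:90695722-90695971, minus strand) holds a C/EBP and a RUNX match, and the Chil3 stretch (chr3:106167565-106167814, minus strand) holds 0 matches. The Elane stretch (chr10:79886062-79886246, plus strand) stops 185 bases in, where GENCODE begins the gene, and holds 1 PU.1 match.
Elane: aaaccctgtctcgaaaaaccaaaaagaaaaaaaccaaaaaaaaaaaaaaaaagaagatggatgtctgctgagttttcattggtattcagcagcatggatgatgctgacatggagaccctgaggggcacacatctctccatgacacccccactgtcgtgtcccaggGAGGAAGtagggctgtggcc
Ctsg: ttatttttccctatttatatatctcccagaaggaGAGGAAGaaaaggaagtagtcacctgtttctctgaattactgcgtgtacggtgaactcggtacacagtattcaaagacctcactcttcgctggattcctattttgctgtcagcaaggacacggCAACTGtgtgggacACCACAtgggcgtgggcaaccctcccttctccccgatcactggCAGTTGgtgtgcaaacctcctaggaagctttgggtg
S100a9: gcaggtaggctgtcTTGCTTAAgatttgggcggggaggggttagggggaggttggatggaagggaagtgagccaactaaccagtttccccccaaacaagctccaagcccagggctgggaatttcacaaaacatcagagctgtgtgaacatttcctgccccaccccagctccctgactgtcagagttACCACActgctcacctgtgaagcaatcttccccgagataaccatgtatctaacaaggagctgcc
Chil3: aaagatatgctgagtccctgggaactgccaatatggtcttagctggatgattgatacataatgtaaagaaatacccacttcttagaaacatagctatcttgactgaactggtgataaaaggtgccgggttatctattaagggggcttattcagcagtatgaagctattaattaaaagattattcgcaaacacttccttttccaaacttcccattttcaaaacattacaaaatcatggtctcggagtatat

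**Figure D1:**
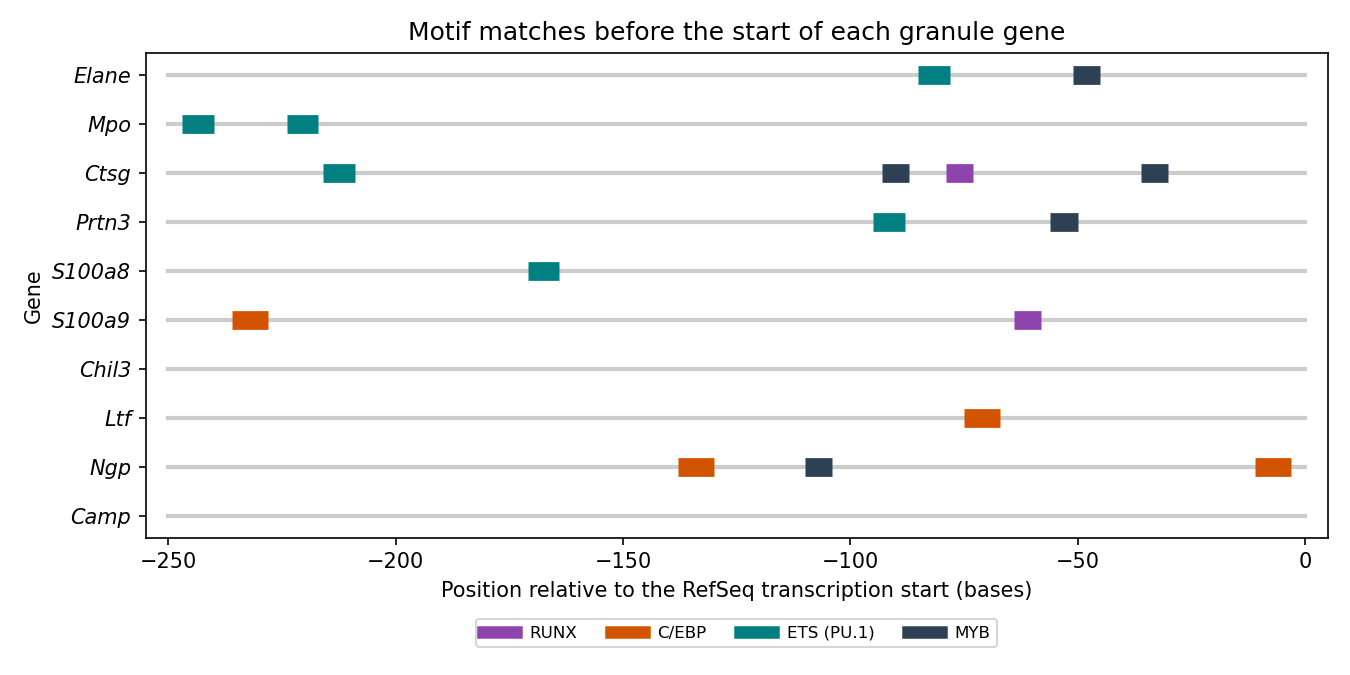
Each grey line is the 250 bases before the RefSeq start of a gene (x axis, position in bases relative to the start), and coloured blocks are matches to RUNX, C/EBP, PU.1 or MYB letters on either strand. Primary granule genes Elane, Mpo, Ctsg and Prtn3 each hold a PU.1 match, Ltf and Ngp hold C/EBP matches, and Chil3 and Camp hold 0.

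Several of the genes are neighbours on the genome. Prtn3 and Elane lie on chromosome 10 with 3.07 kb and no protein-coding gene between them, S100a8 and S100a9 lie on chromosome 3 with 22.6 kb between them, and Camp, Ngp and Ltf lie on chromosome 9, 570 kb and 596 kb apart. Their counts are not equally clean. Of the 50-base stretches of the longest Chil3 transcript, 29.4% also occur in Chil4 or Gm6522, so part of its reads may be split, although in AE9a those names held only 16 and 6 counts in Id1-/- and 31 and 11 in Id1+/+. Mpo overlaps the antisense gene Gm11505, which had 0 counts in both AE9a libraries, and Prtn3 overlaps Plppr3 on the other strand over 159 bases. Apart from Chil3 and Mpo, the other 8 genes share no 50-base stretch with any other gene, and whether the counting used strand is not given in the sources used here.

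Library totals ran between 17864812 and 22510346 counts. The second AE9a column of Id1-/- exceeds the column used by exactly 17 for all 14187 genes that reach 10 counts, and the unused Id1+/+ column exceeds its partner by 134 for 17957 out of 17958 genes that reach 2 counts (the exception is Id1, with 317 counts in the unused column), so each AE9a genotype is 1 library here and has no replicate spread. Id1 itself had 83 counts in AE9a Id1-/- and 383 in AE9a Id1+/+, and averaged 11.8 ± 0.323 CPM (counts relative to the TMM-scaled library total, SD, n = 2) in MLL-AF9 Id1-/- and 31.7 ± 4.07 CPM in MLL-AF9 Id1+/+ (n = 2). The cultures held much macrophage RNA: 12 macrophage markers summed to 35740 and 41430 CPM (sums over genes use the raw library total, without TMM) in AE9a Id1-/- and Id1+/+, whereas 12 mesenchymal markers, the label's cell type, summed to 1224 and 277.8. In MLL-AF9, macrophage markers summed to 28910 and 28140 CPM in Id1-/- and to 32790 and 30360 in Id1+/+, and mesenchymal markers to 3381 and 3644 in Id1-/- and to 682 and 762.5 in Id1+/+. Because each library is a mixture of cells, fewer cells of a type and less RNA per cell cannot be told apart.

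Granule transcripts were a small part of every library except for Chil3 in AE9a. Together the 10 genes made up 0.324% of all counts in AE9a Id1-/- and 0.548% in AE9a Id1+/+, of which Chil3 alone was 99.2% and 99.8%. In MLL-AF9 they made up 0.0203% and 0.0198% of counts in Id1-/- and 0.0396% and 0.0331% in Id1+/+, with Chil3 between 12.9% and 17.4% of that. Without Chil3, the other 9 genes summed to 27.6 CPM in AE9a Id1-/- (95% exact binomial interval 25.3 to 30.2) and 12.4 in AE9a Id1+/+ (10.9 to 13.95). In MLL-AF9 they summed to 175 and 172 CPM in Id1-/- and to 330.0 and 274 in Id1+/+. Id1-/- was thus the higher library in AE9a and the lower genotype in MLL-AF9. With 2 libraries against 2, an exact two-sided permutation test of such a sum cannot give less than 0.333, and none was run.

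**Figure D2:**
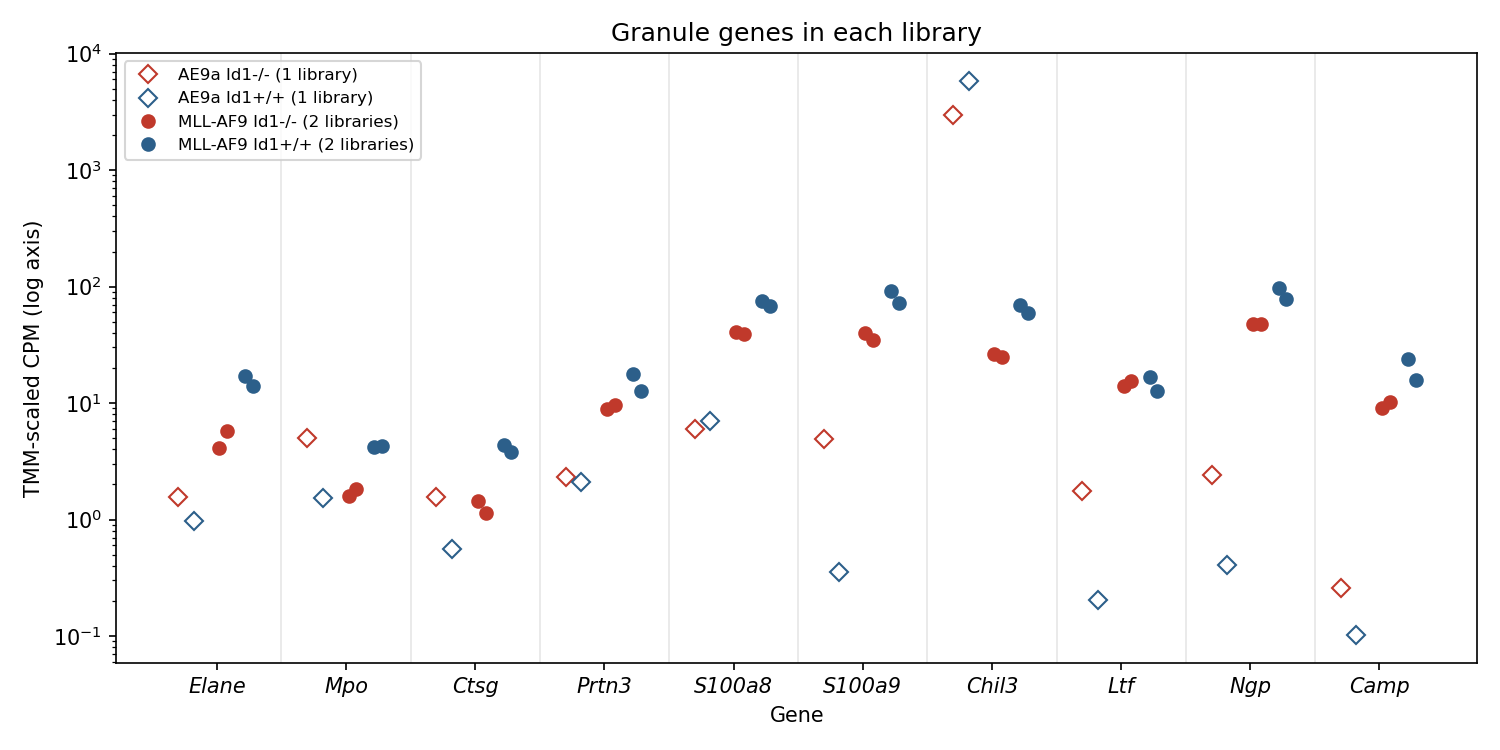
TMM-scaled CPM (y axis, log scale) of each gene (x axis) in each library, with diamonds for the lone AE9a libraries, circles for the MLL-AF9 libraries, red for Id1-/- and blue for Id1+/+. In MLL-AF9 the Id1-/- circles lie below the Id1+/+ circles for every gene except Ltf, and Chil3 in AE9a, at 2999 and 5856 CPM, lies far above all other points.

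Per length of exon, the order of the genes in MLL-AF9 ran from calprotectin down to Mpo. S100a9 had 66.4 and 76.8 RPKM (CPM per kilobase of exon) in Id1-/- and 137 and 174 RPKM in Id1+/+, and S100a8 had 56.9 and 58.5 RPKM in Id1-/- and 98.7 and 109 RPKM in Id1+/+. Ngp, Chil3 and Camp followed in that order in both genotypes without overlap between neighbours. In Id1+/+ the next were Elane, at 14.1 and 17.2 RPKM, and Prtn3, at 7.38 and 10.3 RPKM, and below them Ltf (3.70 and 4.87) and Ctsg (3.67 and 4.22) overlapped. In Id1-/- the levels of Elane (4.21 and 5.89 RPKM) overlapped those of both Prtn3 (5.17 and 5.56) and Ltf (4.03 and 4.47), and Ctsg lay below them at 1.39 and 1.10 RPKM. Mpo was lowest, with 0.463 and 0.538 RPKM in Id1-/- and 1.22 and 1.24 in Id1+/+. In AE9a, Chil3 had 1838 RPKM in Id1-/- and 3588 in Id1+/+, while the other 9 genes lay between 0.34 and 9.48 RPKM in Id1-/- and between 0.0593 and 10.1 in Id1+/+.

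In MLL-AF9, 9 of the 10 genes were lower in Id1-/- cultures (edgeR quasi-likelihood test with Benjamini-Hochberg adjustment at 0.05), 0 were higher and Ltf was not called. Of all 14137 genes tested, 27.8% were called, 10.6% lower and 17.2% higher. Of those 3936 calls 61.8% were higher, and 84% when library totals replaced TMM scaling, which moved the median of all genes by 0.11; 9 of the 10 granule genes were called lower under either scaling. In those 9 genes both Id1-/- libraries lay below both Id1+/+ libraries, which held for 31.5% of all genes tested. The median log2 fold of the 10 genes was -1.08, beside 0.0029 over all genes.

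The primary granule genes included the largest falls. Elane, which encodes neutrophil elastase, had 4.14 and 5.79 CPM in Id1-/- libraries and 17.0 and 13.9 CPM in Id1+/+ libraries, from 81 and 107 counts against 346 and 304. It fell by 1.63 on the log2 scale (SE 0.179, edgeR adjusted p = 4.83e-06), and the 2 genotypes did not overlap. Ctsg, the protease cathepsin G, had 1.43 and 1.14 CPM in Id1-/- and 4.36 and 3.79 CPM in Id1+/+, and fell by 1.66 (SE 0.282, edgeR adjusted p = 0.000417). Mpo, the peroxidase that makes hypochlorous acid, had 1.59 and 1.84 CPM in Id1-/- and 4.17 and 4.25 CPM in Id1+/+, and fell by 1.29 (SE 0.258, edgeR adjusted p = 0.00154). Both are low, with at most 34 counts in an Id1-/- library and at most 93 in an Id1+/+ library. Prtn3, proteinase 3, had 8.95 and 9.64 CPM in Id1-/- and 17.9 and 12.8 CPM in Id1+/+. Its fall of 0.72 (SE 0.163, edgeR adjusted p = 0.00394) rests on Id1+/+ replicate 1: without that library the log2 fold was -0.47 with an adjusted p of 0.0688 (6.05e-06 to 0.0688 over the alternatives tried).

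Elane and its neighbour Prtn3 had unequal folds in MLL-AF9, a difference that was not tested. The intervals given here cover counting error within a library only, and the Prtn3 fold depends on Id1+/+ replicate 1. Elane over Prtn3, per length of exon, was 0.815 and 1.06 in Id1-/- libraries and 1.67 and 1.91 in Id1+/+ libraries, with no overlap between genotypes and with 95% exact intervals of 0.618 to 1.07, 0.825 to 1.35, 1.44 to 1.94 and 1.62 to 2.26. In AE9a the ratio was 1.17 (0.714 to 1.90) in Id1-/- and 0.816 (0.447 to 1.44) in Id1+/+, and these intervals overlap.

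Calprotectin, the calcium- and zinc-binding pair of S100a8 and S100a9, fell in both subunits. S100a9 had 40.1 and 34.7 CPM in Id1-/- and 90.8 and 71.6 CPM in Id1+/+, a fall of 1.12 on the log2 scale (SE 0.113, edgeR adjusted p = 2.22e-06). S100a8 had 40.6 and 39.5 CPM in Id1-/- and 75.7 and 68.5 CPM in Id1+/+, a fall of 0.85 (SE 0.0909, edgeR adjusted p = 3.91e-06). Neither gene's genotypes overlapped. Per length, S100a9 over S100a8 was 1.31 and 1.17 in Id1-/- and 1.60 and 1.39 in Id1+/+.

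The secondary granule genes did not move alike. Ngp, which encodes neutrophilic granule protein, had 48.1 and 48.2 CPM in Id1-/- and 96.7 and 77.8 CPM in Id1+/+, and fell by 0.86 (SE 0.102, edgeR adjusted p = 1.23e-05). Camp, the precursor of the antimicrobial peptide CRAMP, had 9.11 and 10.2 CPM in Id1-/- and 24.1 and 15.7 CPM in Id1+/+, and fell by 1.04 (SE 0.175, edgeR adjusted p = 0.000365). Ltf, which encodes the iron-binding protein lactoferrin, had 13.9 and 15.4 CPM in Id1-/- and 16.8 and 12.8 CPM in Id1+/+, so the genotypes overlapped, with a log2 fold of -0.01 (SE 0.146, edgeR adjusted p = 0.968). Ngp over Ltf, per length, was 9.76 and 8.82 in Id1-/- and 16.2 and 17.2 in Id1+/+.

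Chil3, a chitinase-like lectin made by neutrophil precursors and by some macrophages, had the smallest p of the 10 genes. It had 26.4 and 24.7 CPM in Id1-/- and 69.6 and 59.1 CPM in Id1+/+, and fell by 1.33 on the log2 scale (SE 0.103, edgeR adjusted p = 1.11e-07). Reads shared with its paralogue cannot be separated in these counts, and Chil4 is not among the genes counted in MLL-AF9 that were used here.

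In AE9a the ratio of Id1-/- to Id1+/+ had an interval above 1 for 5 of the 10 genes, below 1 for 1 and holding 1 for 4. The same count was not made over all genes, so these numbers have no background and are a description only. Of the 8 genes with at least 10 counts over both libraries and a mean of at least 1 CPM, 4 (Mpo, Ctsg, S100a9 and Ngp) were at least 2-fold higher in Id1-/- and 0 were at least 2-fold lower. Over 12730 genes, 11.6% were at least 2-fold higher and 1.52% at least 2-fold lower. Ctsg, S100a9 and Ngp lay under 1 CPM in Id1+/+ and passed the filter only through the Id1-/- library, so the count of 4 is a description and supports nothing, and AE9a counts over other lists passed the same filter. With 1 library per genotype there is no test of genotype, and the intervals below are 95% exact binomial intervals on a pair of counts, which cover counting error only and say nothing of variation between animals.

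S100a9 had 96 counts in AE9a Id1-/- and 7 in AE9a Id1+/+, a scaled ratio of 13.8 (6.46 to 35.3). S100a8 had 117 counts in Id1-/- and 137 in Id1+/+, a ratio of 0.861 (0.667 to 1.11), so the calprotectin subunits had unlike ratios. Per length, S100a9 over S100a8 was 1.09 in AE9a Id1-/- (95% exact interval 0.824 to 1.44) and 0.0679 in AE9a Id1+/+ (0.0268 to 0.144), the lowest of the 6 libraries. Ltf had 34 counts in Id1-/- and 4 in Id1+/+, a ratio of 8.57 (3.06 to 33.3), and its mean of both libraries lay under 1 CPM. Ngp had 47 counts in Id1-/- and 8 in Id1+/+, a ratio of 5.93 (2.77 to 14.5). These are small numbers of reads, and the intervals cover counting error only. Camp had 5 counts in Id1-/- and 2 in Id1+/+, a ratio of 2.52 whose interval (0.413 to 26.5) holds 1.

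Among the primary granule genes, Mpo had 97 counts in AE9a Id1-/- and 30 in AE9a Id1+/+, a ratio of 3.26 (2.15 to 5.09). Ctsg had 30 counts in Id1-/- and 11 in Id1+/+, a ratio of 2.75 (1.34 to 6.08). Both ratios lie above 1. Elane had 30 counts in Id1-/- and 19 in Id1+/+, a ratio of 1.59 (0.868 to 2.99), and Prtn3 had 45 and 41, a ratio of 1.11 (0.709 to 1.73), so for the neighbouring pair no difference was detectable at this depth. Chil3 was the only one of the 10 whose interval lay below 1, with 58179 counts in Id1-/- and 114595 in Id1+/+, a ratio of 0.512 (0.507 to 0.517).

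**Figure D3:**
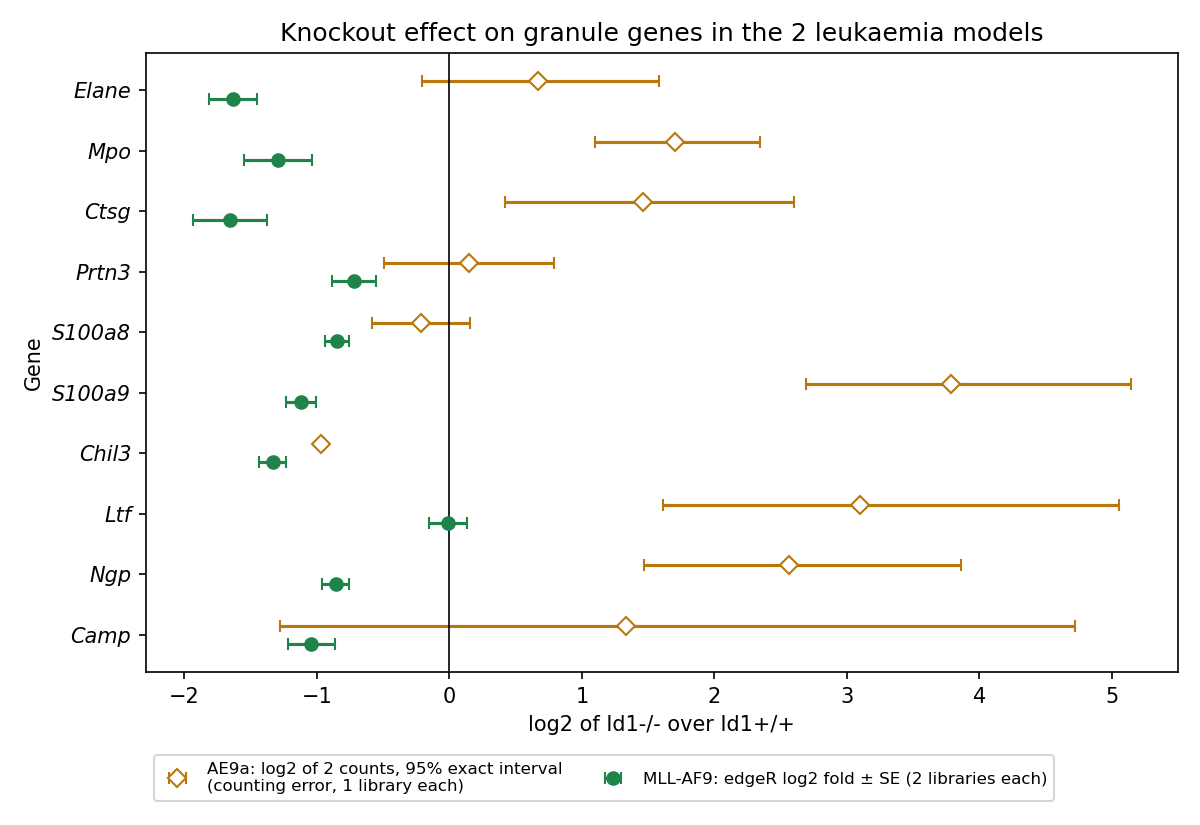
log2 of Id1-/- over Id1+/+ (x axis) for each gene (y axis). Open diamonds are AE9a ratios of 2 counts with 95% exact intervals for counting error, and filled circles are MLL-AF9 edgeR folds ± SE with n = 2 libraries per genotype. S100a9, Ngp, Mpo and Ctsg lie right of 0 in AE9a and left of 0 in MLL-AF9, Ltf lies right of 0 in AE9a and at -0.01 in MLL-AF9, and Chil3 lies left of 0 in both.

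The difference between the knockout effects was tested directly, as the interaction of model and genotype in a joint edgeR fit of the 6 libraries. It takes the spread from the MLL-AF9 libraries and assumes that the lone AE9a libraries vary like them. How many of all genes had a more positive effect in AE9a was not counted, so the shared direction of the 10 genes is a description only. The fitted effect was more positive in AE9a than in MLL-AF9 for all 10 genes, and for 6 of them the difference was called (edgeR, Benjamini-Hochberg adjustment at 0.05), against 3.71% of the 15086 genes tested (10.3% in either direction). The largest difference was that of S100a9, 4.80 on the log2 scale (SE 0.465, edgeR adjusted p = 2.25e-05). Ngp differed by 3.32 (SE 0.488, edgeR adjusted p = 0.000743), Ctsg by 3.02 (SE 0.601, edgeR adjusted p = 0.00569), Ltf by 2.99 (SE 0.620, edgeR adjusted p = 0.00712), Mpo by 2.91 (SE 0.434, edgeR adjusted p = 0.000863) and Elane by 2.21 (SE 0.488, edgeR adjusted p = 0.0102). Those 6 hold members of both granule classes, and the median difference over the 10 genes was 2.57, beside -0.085 over all genes.

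The other 4 genes were not called for a difference, which does not show that their effects were alike. The difference was 0.78 for Prtn3 (SE 0.403, edgeR adjusted p = 0.248), 0.54 for S100a8 (SE 0.221, edgeR adjusted p = 0.137), 0.28 for Chil3 (SE 0.156, edgeR adjusted p = 0.291) and 2.24 for Camp (SE 1.24, edgeR adjusted p = 0.282). Chil3 had the smallest difference of the 10, although its level in the AE9a libraries was 3115 CPM in Id1-/- and 6506 in Id1+/+ on the scale of the joint fit, against 26.2 and 24.5 in MLL-AF9 Id1-/- and 69.5 and 58.9 in MLL-AF9 Id1+/+. Every other gene except Mpo and Ctsg was lower in both AE9a libraries than in all 4 MLL-AF9 libraries on that scale. Model and count table coincide, so a difference in level between the models and a difference in how the tables were made cannot be told apart.

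Other granule genes fell by widely different amounts in MLL-AF9. Of 12 further genes of primary granules and lysosomes tested, 7 fell and 0 rose, with a median log2 fold of -0.34. Among those with the smallest adjusted p were Ctsc (-0.46), the protease that activates the granule serine proteases, Ctsd (-0.48) and Cd63 (-0.31). These 3 are also lysosomal genes of macrophages, whose markers fell in 6 of 12 cases and rose in 3. The promyelocyte genes Ms4a3 and Prss57, named after their values were seen, fell by 1.69 and 1.56, at 34 counts or fewer per library, and had 4 and 0 counts in AE9a Id1-/- and 1 and 0 in AE9a Id1+/+. In AE9a 0 of 10 genes of that list were past 2-fold, and the Ctsc effect was more positive in AE9a than in MLL-AF9 by 0.76 (edgeR adjusted p = 0.00283).

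Of 21 other genes of secondary and tertiary granules tested in MLL-AF9, 12 fell and 1 rose, with a median log2 fold of -0.33. Mmp9, the gelatinase of tertiary granules, was the gene that rose, at 66.7 ± 2.11 CPM in Id1-/- and 43.0 ± 2.45 CPM in Id1+/+ (SD, n = 2; log2 0.63, edgeR adjusted p = 7.29e-05). Adam8 (-0.48), the neutrophil collagenase Mmp8 (-0.42) and the surface protein Cd177 (-0.80) fell. The less abundant Olfm4 (-1.11), Fcnb (-1.05) and Pglyrp1 (-0.76), named after their values were seen, fell as well. In AE9a 3 of the 16 genes that passed the filters were at least 2-fold higher and 1 at least 2-fold lower. The median log2 ratio of those 16 was -0.445. Mmp9 had 371 counts in AE9a Id1-/- and 62 in AE9a Id1+/+, and the lower gene, Orm1, had 11 and 65. Cd177, Pglyrp1, Olfm4 and Fcnb had 1, 2, 0 and 2 counts in AE9a Id1-/- and 6, 7, 0 and 0 in AE9a Id1+/+. Of 6 interaction calls in the list, Mmp9 and Cnn2 were more positive in AE9a, and Cybb, Cyba, Itgb2 and Slpi were more negative.

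Genes of mature neutrophils ranged from abundant to nearly absent. Of 11 tested in MLL-AF9, 2 fell, the C-type lectins Clec4d (-0.57) and Clec4e (-0.60), which macrophages also express, and 0 rose, with a median of -0.06. Of 7 that passed the filters in AE9a, 0 were at least 2-fold higher in Id1-/-. At least 2-fold lower was 1, Mcemp1, with 18 counts in AE9a Id1-/- and 58 in AE9a Id1+/+. The median log2 ratio was -0.766, and the whole list summed to 531.9 CPM in AE9a Id1-/- and 675.4 in AE9a Id1+/+. Ly6g, the defining surface marker of mouse neutrophils, had 6 and 11 counts in MLL-AF9 Id1-/- and 8 and 5 in MLL-AF9 Id1+/+, and 1 and 0 counts in AE9a Id1-/- and Id1+/+. Retnlg, Stfa1, Stfa2, Stfa2l1 and Stfa3 were at 0 in both AE9a libraries. Csf3r, the receptor of the neutrophil growth factor, was not called in MLL-AF9 (log2 0.04, edgeR adjusted p = 0.737), and its knockout effect was lower in AE9a by 0.90 (edgeR adjusted p = 0.00156).

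Among 11 transcription factors and related genes of the granulocyte lineage tested in MLL-AF9, 3 fell and 1 rose, with a median of -0.20. Spi1, which encodes PU.1, fell by 0.36, Irf8 by 0.25 and Cebpb by 0.24, and the clock gene Per3 rose by 0.64 on the log2 scale. Cebpe, needed for secondary granules, had 7.57 ± 2.46 CPM in Id1-/- and 10.0 ± 1.61 CPM in Id1+/+ (SD, n = 2) and was not called (edgeR adjusted p = 0.144). Cebpa, needed to form granulocyte progenitors, was not called either (log2 -0.05, edgeR adjusted p = 0.681). Myb had 349 counts in AE9a Id1-/- and 137 in AE9a Id1+/+, with a knockout effect more positive in AE9a than in MLL-AF9 by 1.47 (edgeR adjusted p = 0.00931). The other 3 interaction calls of the list went the opposite way, with differences of -0.56 for Cebpa, -0.61 for Cebpb and -0.92 for Per3 (edgeR adjusted p = 0.0165, 0.0157 and 0.0431).

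Markers of other cells also differed between the genotypes, and not always in the direction of the granule genes. Of 11 progenitor and leukaemic blast markers, 6 had a more positive knockout effect in AE9a and 0 a more negative effect, among them Hoxa9, with 89 counts in AE9a Id1-/- and 26 in AE9a Id1+/+, and Hoxa10, with 115 and 35. In MLL-AF9, Hoxa9 averaged 117 ± 11.6 CPM in Id1-/- and 143 ± 6.01 CPM in Id1+/+ (SD, n = 2; log2 -0.30, edgeR adjusted p = 0.0175). Erythroid markers summed to 121 CPM in AE9a Id1-/- and 24.7 in AE9a Id1+/+, with 6 of 7 genes at least 2-fold higher, and lymphocyte markers to 9.21 and 4.48. In MLL-AF9, where only 2 of the 8 erythroid names are listed, erythroid markers summed to 0.16 and 0.336 CPM in Id1-/- and to 0.791 and 1.20 in Id1+/+. Lymphocyte markers summed to 123.2 and 107.9 CPM in MLL-AF9 Id1-/- and to 42.6 and 45.13 in MLL-AF9 Id1+/+. Of 5 lymphocyte genes tested there, 2 rose, Igkc and Ighm, and 0 fell. Monocyte markers summed to 2289 CPM in AE9a Id1-/- and 795.6 in AE9a Id1+/+, and to 1632 and 1775 in MLL-AF9 Id1-/- and 740.8 and 805.9 in MLL-AF9 Id1+/+. Most of the MLL-AF9 Id1-/- sum and of both AE9a sums was Fn1, a matrix gene. In MLL-AF9, Fn1 had 1066 and 1282 CPM in Id1-/- and 273.6 and 346.9 CPM in Id1+/+. In AE9a, Fn1 had 1913 CPM (TMM-scaled) in Id1-/- and 728.6 in Id1+/+. Of the 10 monocyte markers 3 fell in MLL-AF9 (Plac8, F13a1 and Cd14), 2 rose (Fn1 and Vcan) and the median log2 fold was 0.06. Of 10 mesenchymal markers that passed the filters in AE9a, 7 were at least 2-fold higher in Id1-/- and 1 at least 2-fold lower, and in MLL-AF9 8 of 12 rose and 1 fell. The part of these other cells in the granule gene results was not tested.

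**Figure D4:**
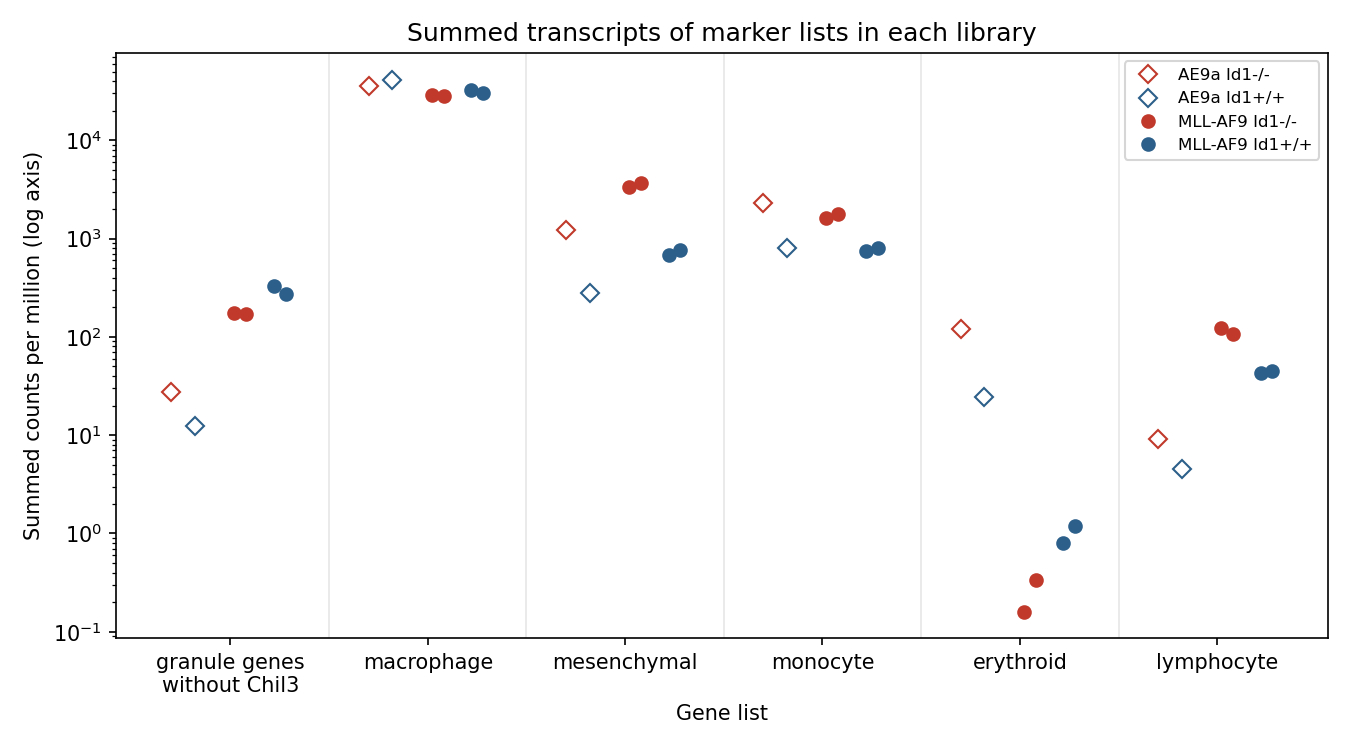
Summed CPM without TMM (y axis, log scale) of the 9 granule genes other than Chil3 and of 5 marker lists (x axis) in each library, with diamonds for AE9a, circles for MLL-AF9, red for Id1-/- and blue for Id1+/+. In AE9a the mesenchymal, monocyte, erythroid and lymphocyte sums, like the granule genes, are higher in Id1-/-, and the macrophage sum is lower. Most of both AE9a monocyte sums is the matrix gene Fn1. In MLL-AF9 the granule gene and macrophage sums are lower in Id1-/-, while the mesenchymal, monocyte and lymphocyte sums are higher. The MLL-AF9 erythroid sum is also lower, but it rests on 2 untested genes with 21 counts or fewer per library.

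Related gene families gave a mixed picture. Of 7 other S100 genes tested in MLL-AF9, S100a16 rose (log2 0.86, edgeR adjusted p = 8.89e-05) and S100a1 fell (-0.41, edgeR adjusted p = 0.00115), with a median of -0.19. The effect was more positive in AE9a for S100a6 and S100a16, by 0.82 and 1.30. Of the chitinase-like genes, Chit1, which had 4 and 1 counts in MLL-AF9 Id1-/- and 14 and 17 in MLL-AF9 Id1+/+, fell by 2.42 (edgeR adjusted p = 0.0165), and Chil1 was not called. Of 8 receptors of calprotectin, lactoferrin and formyl peptides, Tlr4 fell by 0.30 and Lrp1 and Cd33 rose by 0.71 and 0.32 in MLL-AF9. The effect was more negative in AE9a for Lrp1 and Cd36, with differences of -1.235 and -0.82 in the joint fit. Only 3 of 12 eosinophil, basophil and mast cell markers were tested in MLL-AF9, and the basophil protease Mcpt8 rose by 0.65. The list summed to 18.16 and 15.62 CPM in MLL-AF9 Id1-/- and to 11.22 and 10.17 in MLL-AF9 Id1+/+. In AE9a it summed to 408.6 CPM in Id1-/- and 419 in Id1+/+, and 0 of 6 genes were past 2-fold.

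The genes whose levels over the 6 libraries were most like the mean profile of the 10 were Pid1, 1700006J14Rik, Colec12, Dusp5 and Ly6c2, among 10212 genes averaging 5 CPM or more. Likeness was the root-mean-square distance between log2 levels centred over the 6 libraries, and it was 0.189 for Pid1 and 0.286 for Ly6c2. Pid1 had 51.4 CPM in AE9a Id1-/- and 32.5 in AE9a Id1+/+, and 139 and 134 CPM in MLL-AF9 Id1-/- and 242 and 222 CPM in MLL-AF9 Id1+/+. Of the 10 granule genes themselves, Prtn3 (0.336) and Elane (0.361) were nearest to that mean and Chil3 (4.32) was farthest. The mean included Chil3, whose levels were higher in AE9a than in MLL-AF9, the reverse of most of the 10. Each of the listed genes lay closer to the mean than any granule gene, so the likeness is to the mean only.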

How the data were processed

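RNA was counted per gene name in 8 deposited libraries of cultured mouse bone marrow stromal cells, of which 6 were usable. The authors deposited raw counts in separate tables for the 2 models, and per the submitters' processing notes fastp 0.22.0, HISAT2 2.2.1, featureCounts 2.0.1 and DESeq2 1.32.0 were used with the mm10 genome, in roles that are not given in the sources used here. The deposited columns AE9a Id1+/+ replicate 1 and AE9a Id1-/- replicate 2 hold other values, counts plus a constant, and served in 1 alternative only. MLL-AF9 replicates differed like separate libraries (their median chi-square per gene was 1.71 in Id1-/- and 2.19 in Id1+/+, where pure sampling noise gives 0.455).

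For MLL-AF9, genes passing filterByExpr went into an edgeR 4.0.16 quasi-likelihood fit with TMM scaling in R 4.3.3 (two-sided, Benjamini-Hochberg over all genes tested, threshold 0.05), without a replicate block. AE9a ratios were TMM-scaled, and the count past 2-fold used a prior count of 2. The interaction of model and genotype was fitted on the 15849 unique names in both tables. Levels between genes use GENCODE M21 exon lengths. The fits were tested on simulated data. Alternatives were other scaling, no filter, DESeq2 1.42.0, each library left out, a replicate block and other AE9a columns. Named genes are all 10 genes, and from each other list at most the 4 with the smallest adjusted p and markers at 0; any further list gene was named after its values were seen. A list gene that this rule names is not reported here. The 10 genes and all lists were chosen with earlier results of these data known.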

Additional observations from a re-analysis of the deposited data

Results flagged for a closer look

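For 6 granule genes the effect of Id1 loss differed between the AE9a and MLL-AF9 cultures by the interaction test of the joint edgeR fit (Benjamini-Hochberg over all genes). The differences, AE9a minus MLL-AF9 on the log2 scale, were 4.80 for S100a9, 3.32 for Ngp, 3.02 for Ctsg, 2.99 for Ltf, 2.91 for Mpo and 2.21 for Elane. Each rests on 1 AE9a library per genotype and on 4 to 97 AE9a counts per gene and library.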

How the results depend on the processing

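All 9 falls in MLL-AF9 kept their direction under each of the 10 alternatives, and only that of Prtn3 lost its call. Leaving out 1 library gave 8 to 9 granule genes called and 2225 to 3864 genes called over all, against 3936 with every library (2319 without Id1+/+ replicate 1, 2225 without Id1-/- replicate 1 and 2477 without Id1-/- replicate 2). The replicate block gave 9 granule genes and 5193 genes over all, and it changed no call among the 10 genes. The replicate numbers share no stated animal or day, and the deviations of same-numbered libraries correlated at 0.165 across genes. With library totals in place of TMM the median of all genes was 0.11 in MLL-AF9 and 0.19 in AE9a, and 84% in place of 61.8% of MLL-AF9 calls were higher. For the interaction 75.6% of calls with library totals were more positive in AE9a, against 36.1%. The 6 interaction calls held under all 8 alternatives.

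In AE9a the 4 genes at least 2-fold higher in Id1-/- became 0, and 3 were at least 2-fold lower, with the other deposited columns, whose added constants, 134 for Id1+/+ and 17 for Id1-/-, outweigh these counts. The log2 ratio was then -0.0395 for Mpo, -1.11 for Ctsg, -0.93 for Ltf and -0.65 for Ngp. Taken over the names in both tables, the share of the 10 genes was 0.345% in AE9a Id1-/- and 0.573% in AE9a Id1+/+. Depth is a limit in AE9a, where all granule genes except Chil3 had 137 counts or fewer per library.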
